A study of Mus musculus with 2 samples.

Results

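Kainate receptors are glutamate-gated cation channels assembled from the products of 5 pore-forming genes. Grik1, Grik2 and Grik3 encode the low-affinity subunits GluK1, GluK2 and GluK3, which can form channels without the other subunits, and Grik4 and Grik5 encode the high-affinity subunits GluK4 and GluK5, which need a low-affinity partner. Neto1 and Neto2 encode auxiliary proteins that bind the receptors and slow their gating. In the hippocampus these receptors are known from the mossy fibre synapse, by which granule cells of the dentate gyrus excite CA3 pyramidal neurons, and from GABAergic interneurons.

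These 7 genes, chosen by symbol, are described here out of 32285 genes counted. The data are single-nucleus RNA counts from the hippocampus of 3-month-old mice of the genotype Stra8L/-; Nestin-Cre, in which Cre is driven by the Nestin promoter, known from neural progenitors, so that recombination is expected in neurons, astrocytes and oligodendrocytes rather than in microglia. One library came from male tissue and 1 from female tissue, both of this genotype. No library of another genotype was analysed here, so the values describe how the genes are spread over cell classes and do not bear on Stra8. The labels do not say how many animals each library holds.

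The male library held 16174 barcodes with 103262825 unique molecular identifiers (UMIs, counts of single transcript molecules) and the female library 20150 barcodes with 108286856 UMIs, at medians of 4810 and 2798 UMIs per barcode. After filtering, 12662 male and 11057 female nuclei fell into the 15 classes that held 50 or more nuclei in both libraries. These were 7 excitatory classes (granule, CA1, CA2 and CA3 pyramidal neurons, and 3 subicular or deep-layer clusters called by their leading genes Fn1, Vwc2l and Dpp10), 4 interneuron subtypes (Sst, Pvalb, Lamp5, and Vip or Cck) and 4 glial classes (oligodendrocyte precursors, oligodendrocytes, astrocytes, and microglia or macrophages). Classes were named from lists of 8 markers, so the counts of markers here describe the classes and are not a separate check. All 8 had a UMI in both libraries in each class. At least 5 of the 8 were over 2-fold higher than in the mean of the other classes in every class outside the 3 subicular or deep-layer clusters, which share 1 marker list and had 3 or 4. A level is given as CPM, the UMIs of a gene per 1000000 UMIs summed over all nuclei of a class in a library. With 1 library per sex there is no test: intervals are exact 95% intervals that cover counting error only, and sex cannot be told apart from animal, dissection or library. A gene was called different between classes where log2 of the ratio, with 5 CPM added to each side, was at least 1 in size and of the same sign in both libraries, among genes with at least 20 CPM on either side in each. The share of all tested genes called by the same rule is given beside each count of members called.

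The 5 pore-forming genes share a glutamine codon, CAG, at the Q/R site of the channel pore. In Grik1 and Grik2 transcripts the middle base of this codon is known to be edited by the enzyme that Adarb1 encodes. UMI counts do not read the editing. The reference sequence of each gene around this codon (30 bases, 5′ to 3′, mm10 with GENCODE vM21 transcripts) is shown because editing is a property that expression levels do not show. The capitals mark the Q/R codon.
Grik1: ggagctctcatgCAGcaaggatcggagctg
Grik2: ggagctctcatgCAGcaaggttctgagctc
Grik3: ggctccctgatgCAGcaaggatctgaactg
Grik4: ggaggcttcatgCAGcaaggctccactatt
Grik5: ggtggcttcatgCAGcagggctcggagatc
All 5 carried CAG there. The Grik1 and Grik2 windows were identical at 27 of 30 bases, while Grik3 and Grik4 were identical at 18 of 30. The codon lies at chr16:87940542-87940544 in Grik1, at chr10:49244329-49244331 in Grik2, at chr4:125691207-125691209 in Grik3, at chr9:42547623-42547625 in Grik4 and at chr7:25022497-25022499 in Grik5, each within the coding exons. The window crosses an exon junction in Grik1, Grik2 and Grik3. The genes themselves span 394 kb (Grik1), 694 kb (Grik2), 223 kb (Grik3), 426 kb (Grik4) and 62.5 kb (Grik5). Nuclear RNA holds unspliced transcripts, and longer genes can give more UMIs, so levels are compared between genes only per 100 kb of gene span.

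Grik1 was highest in interneurons. Its level was 2674 CPM (2564 to 2788) in the male and 2305 CPM (2194 to 2420) in the female library in Lamp5 interneurons, the class of neurogliaform and ivy cells. Sst interneurons, which inhibit dendrites, followed at 1676 and 1934 CPM. Vip or Cck interneurons held 861 and 938.5 CPM and Pvalb interneurons 498 and 388 CPM. The Pvalb class was named from 4 sub-clusters with 4 to 6 of its 8 markers over 2-fold, but in 3 of them no listed marker was among the 10 leading genes. Pvalb itself was 90.7 and 45.1 CPM in this class, beside 30.1 and 40.2 CPM in microglia or macrophages. In the female library the name thus rests little on Pvalb. Part of the Sst class was also weakly named. Its sub-cluster led by Rtkn2, with 57 male and 40 female nuclei, had 3 markers over 2-fold. None of them was among its 20 leading genes. In the pyramidal fields and granule cells Grik1 was close to 0, with 3.43 CPM (2.22 to 5.07) and 4.36 CPM (2.85 to 6.39) in CA3, and at most 8.07 CPM in granule cells. All 4 interneuron subtypes therefore lay above these 4 excitatory classes in both libraries without overlap. Among the other excitatory classes, the Vwc2l cluster held 396 and 475 CPM of Grik1, which overlapped the range of Pvalb interneurons. Outside neurons, oligodendrocyte precursors held 344 and 384 CPM and oligodendrocytes 191 and 229 CPM. Of the 14 pairs of classes next to each other in order of mean level, 5 overlapped between libraries.

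The share of nuclei with a UMI was also read with every nucleus thinned to 1000 UMIs and shallower nuclei left out. Lamp5, Sst and Vip or Cck interneurons again came first, whereas Pvalb nuclei, at 28.0% and 27.1%, lay above the Vwc2l cluster in the male library and below it in the female, at 23.8% and 35.6%. Grik1 was found in 83.2% of 107 male and 78.3% of 83 female Lamp5 nuclei, and in 65.7% and 69.4% of Sst nuclei. Unthinned, these shares were 97.2% and 98.8% in Lamp5 nuclei. In microglia, which served as the background class because free RNA gives UMIs to nuclei that do not express a gene, the thinned share was 2.12% and 1.72%. CA3 nuclei lay at or below that, at 0.155% and 0.606%. Median depth differed between these classes, from 6904 and 7950.5 UMIs in Lamp5 nuclei to 10479 and 10826 in CA3 nuclei before thinning.

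Grik2, which encodes the subunit that carries most kainate currents at principal cell synapses, was the broadest of the 3 low-affinity genes. It reached 2722 and 2948 CPM in Lamp5 interneurons, 2041 and 2249 CPM in Vip or Cck interneurons and 1937 and 2234 CPM in granule cells. CA3 held 1556 and 1703 CPM, CA1 843 and 900 CPM, and CA2 712 and 770 CPM. Granule cells and CA3 thus lay above CA1 and CA2 in both libraries. Astrocytes held 510 and 566 CPM and microglia the lowest level of the 15 classes, 195 and 140 CPM. The thinned share of Grik2 lay above that in microglia, with intervals apart in both libraries, in all 14 other classes. For Grik5 the same held in 3 of 14 classes. This was not counted over all genes, so how an ordinary gene would fare is not known.

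Grik3, whose product forms low-affinity receptors found before and after the synapse, was low and sharply placed. The Vwc2l cluster held 298 CPM (277 to 321) and 241 CPM (220 to 263), Sst interneurons 193 and 187 CPM, Pvalb interneurons 103 and 96.3 CPM, and oligodendrocyte precursors 92.3 and 89.0 CPM. CA1 held 4.21 CPM (3.25 to 5.37) and 1.16 CPM (0.686 to 1.83), and CA2 and CA3 did not pass 3.02 CPM. Lamp5 interneurons, with the most Grik1 of any class, held 6.05 CPM (1.97 to 14.1) and 8.48 CPM (3.11 to 18.5) of Grik3. The interneuron subtypes with Sst and Pvalb therefore carried Grik1 and Grik3, as did Vip or Cck interneurons, with 43.7 and 36.2 CPM of Grik3. After thinning to 1000 UMIs, 5.41% and 6.48% of Vip or Cck nuclei had a Grik3 UMI, close to 5.33% and 6.25% of Pvalb nuclei. The Lamp5 subtype carried Grik1 with Grik3 at the level of microglia, where it was 10.0 and 4.27 CPM.

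The 2 high-affinity genes differed in spread. Grik4 was 1067 CPM (1044 to 1091) and 1215 CPM (1187 to 1243) in CA3 and 630 and 658 CPM in CA2, apart from each other and from the remaining classes in both libraries. Oligodendrocyte precursors came next, at 262 and 292 CPM, and granule cells held 235 and 239 CPM. CA1 held 100 CPM (95.4 to 105) and 79.5 CPM (75.1 to 84.1), and the 4 interneuron subtypes 39.7 to 88.4 CPM. After thinning, 64.4% of 644 male and 68.7% of 495 female CA3 nuclei had a Grik4 UMI, against 4.38% and 2.19% of microglia. Grik5 instead was even across classes. It ran from a mean of 133 CPM in CA3 to 51.9 CPM in Pvalb interneurons, 2.57-fold, and 13 of 14 neighbouring pairs of classes overlapped. For Grik4 the same ratio was 35.7-fold and for Grik1 639-fold.

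Of the auxiliary genes, Neto1, whose product also binds NMDA receptors, was 1010 and 959 CPM in Sst interneurons, 780 CPM (760 to 801) and 833 CPM (810 to 857) in CA3 and 744 and 753 CPM in Vip or Cck interneurons. Lamp5 interneurons held 213 and 252 CPM, granule cells 206 and 174 CPM and CA1 116 and 87.5 CPM. Neto2 was 218 CPM (200 to 238) and 243 CPM (222 to 266) in the Vwc2l cluster, 160 and 150 CPM in Sst interneurons and 101 and 112 CPM in CA3. Granule cells held the least Neto2 of the 15 classes, 15.7 CPM (14.1 to 17.4) and 14.1 CPM (11.9 to 16.5). CA3 and Sst interneurons thus held both auxiliary genes above the level of granule cells. The same was true in both libraries of the other interneuron subtypes, the Fn1 cluster and oligodendrocyte precursors. Neto1 spans 112 kb and Neto2 64.3 kb. AC113599.1, annotated antisense to Neto1, held 42 and 54 UMIs over all nuclei, and whether strand was used in counting is not given in the sources used here. A set of 41 male and 38 female nuclei with hilar mossy cell markers, too few to be compared, held 2701 and 3394 CPM of Grik2, 485 and 625.5 CPM of Grik4 and 187 and 276 CPM of Neto2.

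**Figure D1:**
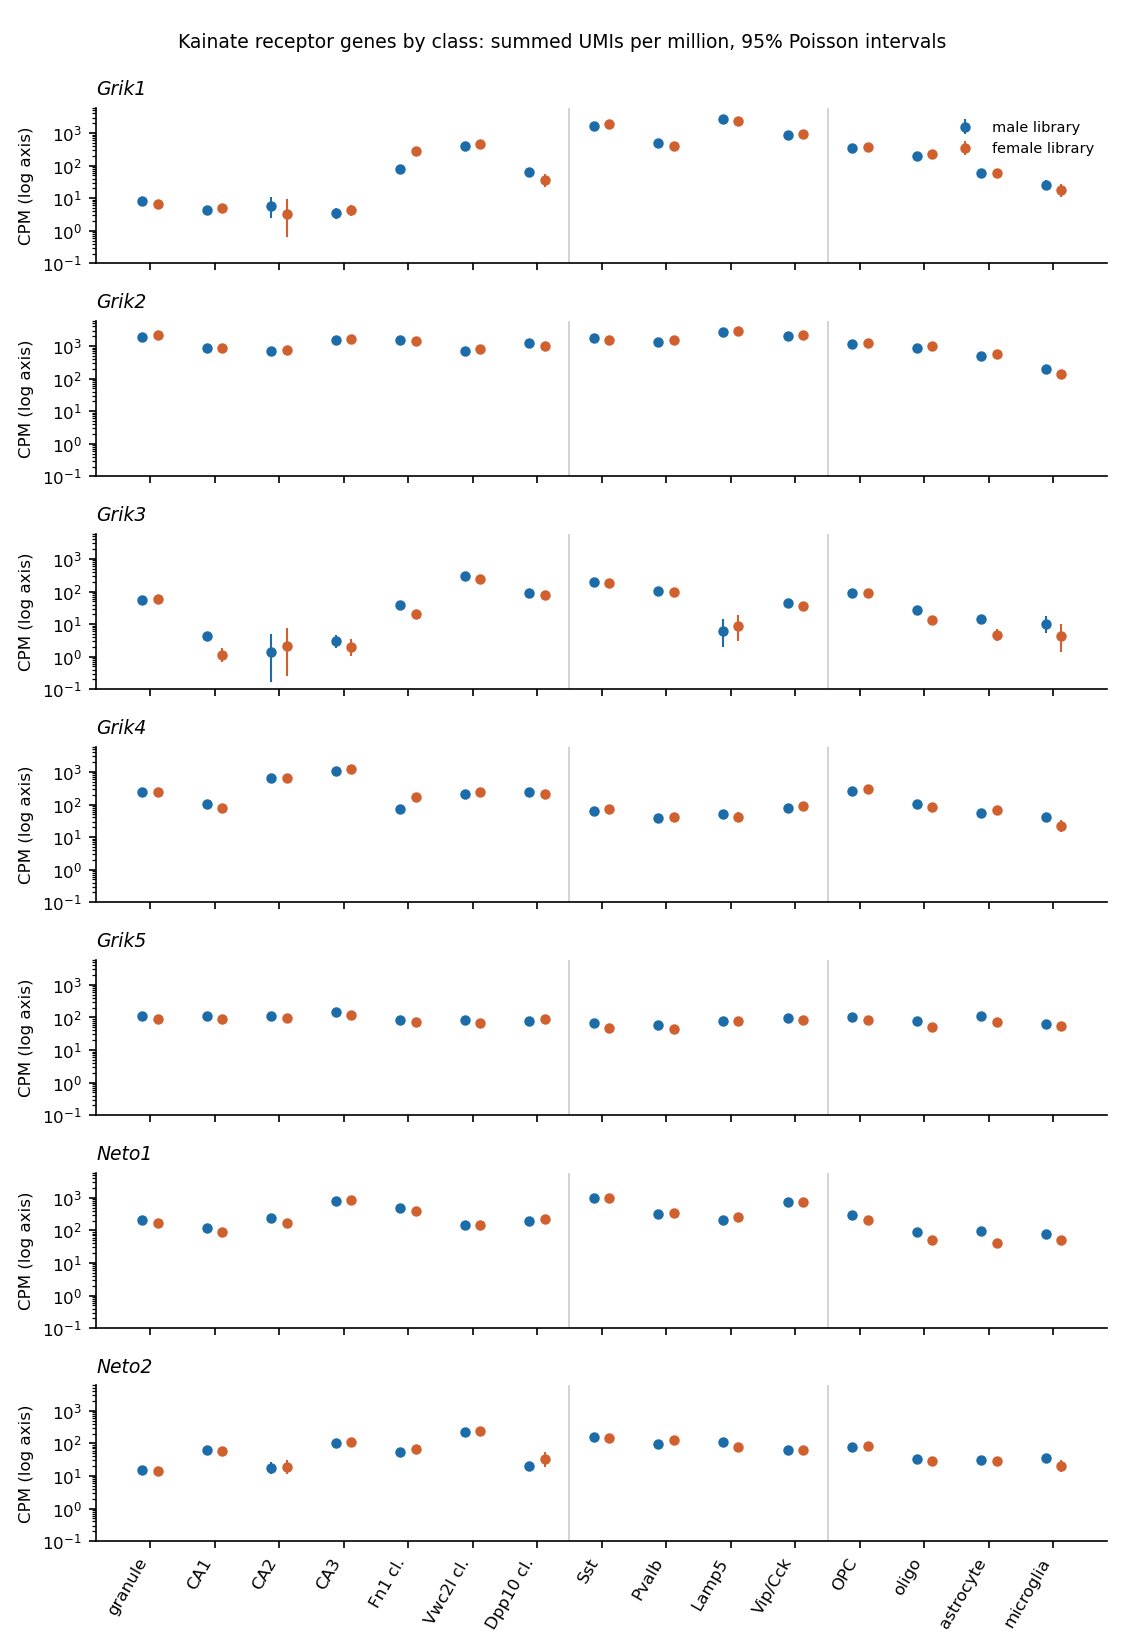
Level of each gene in CPM (log axis) in the 15 classes, with 1 point per library and exact 95% Poisson intervals; grey lines part excitatory classes, interneurons and glia. Grik1 spans 2674 CPM in male Lamp5 interneurons to 3.23 CPM in female CA2, whereas Grik5 stays between 44.2 and 145 CPM.

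Per 100 kb of gene span, the make-up of Grik transcripts differed between classes. In CA3, Grik4 made up 35.3% and 39.3% of the summed Grik1 to Grik5 level, Grik5 32.8% and 26.6%, and Grik2 31.6% and 33.8%. In CA1, Grik5 made up 54.8% and 48.9% and Grik4 7.18% and 6.35%. The Grik5 share was higher still in microglia, the background class, at 66.9% and 72.7%, and was 61.5% and 50.5% in astrocytes. Grik2 led in granule cells, at 51.9% and 59.0%, and Grik1 in Lamp5 interneurons, at 56.1% and 50.8%, and in Sst interneurons, at 47.9% and 54.97%. The interneurons thus drew most of the level from low-affinity genes, with Grik4 at 2.83% or less in all 4 subtypes. Low-affinity genes also gave most of the level in granule cells, the Fn1 and Vwc2l clusters, oligodendrocyte precursors and oligodendrocytes, among others. Whether introns were counted is not given in the sources used here, and the share of a gene per kb moves with that choice.

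**Figure D2:**
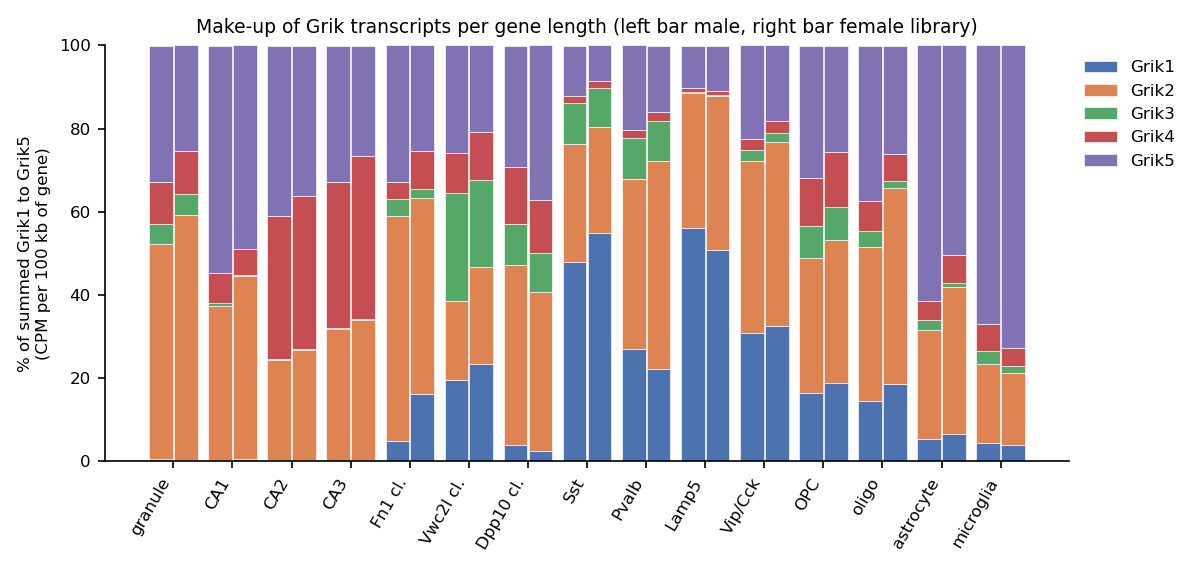
Share of each Grik gene in the summed level of the 5 genes, in percent of CPM per 100 kb of gene span, with the male library as the left and the female library as the right bar of each class. Grik4 takes 35.3% and 39.3% in CA3 and 7.18% and 6.35% in CA1, and Grik1 takes 56.1% and 50.8% in Lamp5 interneurons.

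The excitatory fields were compared in pairs, and since the 3 comparisons share classes they are not independent. Between CA3 and CA1, 5 of the 7 genes had enough UMIs and 2 were called, both higher in CA3, against 8.61% of 6455 genes called (4.09% higher and 4.52% lower in CA3). Grik4 was 10.2-fold and 14.4-fold higher (log2 3.35 and 3.85) and Neto1 6.49-fold and 9.06-fold higher (log2 2.70 and 3.18). Grik2 was 1.84-fold and 1.89-fold higher and did not reach the 2-fold rule. The median over the tested genes of all kinds was log2 -0.02 and -0.03.

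Between granule cells and CA1, 6 genes had enough UMIs and 4 were called, 3 higher and 1 lower in granule cells, against 12.1% of 6916 genes (6.8% higher and 5.35% lower). Grik2 was 2.29-fold and 2.47-fold higher, Grik4 2.28-fold and 2.89-fold higher, and Grik3 6.69-fold and 10.7-fold higher on the scale with 5 CPM added. Neto2 was lower (log2 -1.72 and -1.73). Grik3 passed the filter through granule cells alone, where it was 56.6 and 61.1 CPM, and Neto2 through CA1 alone, at 63.3 and 58.1 CPM. With median-of-ratios scaling, the calls of Grik3 and Neto2 were left, and Grik2 and Grik4 missed the rule. Granule nuclei came from 2 clusters, and the one led by C1ql2 held 25.7% of the male nuclei and 6.68% of those from the female. In the other cluster, led by Glis3, Grik2 was 2083 and 2248 CPM and the same 4 genes were called.

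Between CA3 and granule cells, the postsynaptic and presynaptic cells of the mossy fibre synapse, 6 genes had enough UMIs and 4 were called, against 13.2% of 6940 genes (5.3% higher and 7.91% lower in CA3). Grik4, Neto1 and Neto2 were higher in CA3, at 4.47-fold and 4.99-fold, 3.73-fold and 4.69-fold, and 5.12-fold and 6.11-fold. Grik3 was lower in CA3 (log2 -2.94 and -3.24). Here Grik3 passed the filter through granule cells alone and Neto2 through CA3 alone. Grik2, present in both cells, was at log2 -0.32 and -0.39.

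Between the mean of the 4 interneuron subtypes and the mean of the 7 excitatory classes, all 7 genes were tested and 2 were called, against 11.5% of 7063 genes (5.85% higher and 5.62% lower in interneurons). Grik1 was 16.9-fold and 11.5-fold higher in interneurons. Grik4 was lower (log2 -2.57 and -2.63). Its excitatory mean includes CA3 and CA2, where it was highest. In CA1 it was 100 and 79.5 CPM and in the Fn1 cluster 70.7 and 170 CPM. Both overlapped Vip or Cck interneurons, at 78.0 and 88.4 CPM. Neto1 was 1.83-fold and 1.97-fold higher and Grik2 1.61-fold and 1.63-fold higher, under the 2-fold rule. A further 75 male and 356 female GABAergic nuclei, in sub-clusters without a subtype name, were left out, and with them as 1 more class Grik4 was at a mean log2 of -1.88 and both genes were called. With called doublets kept and all GABAergic nuclei as 1 class, Grik4 was at a mean log2 of -1.25 and was not called.

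**Figure D3:**
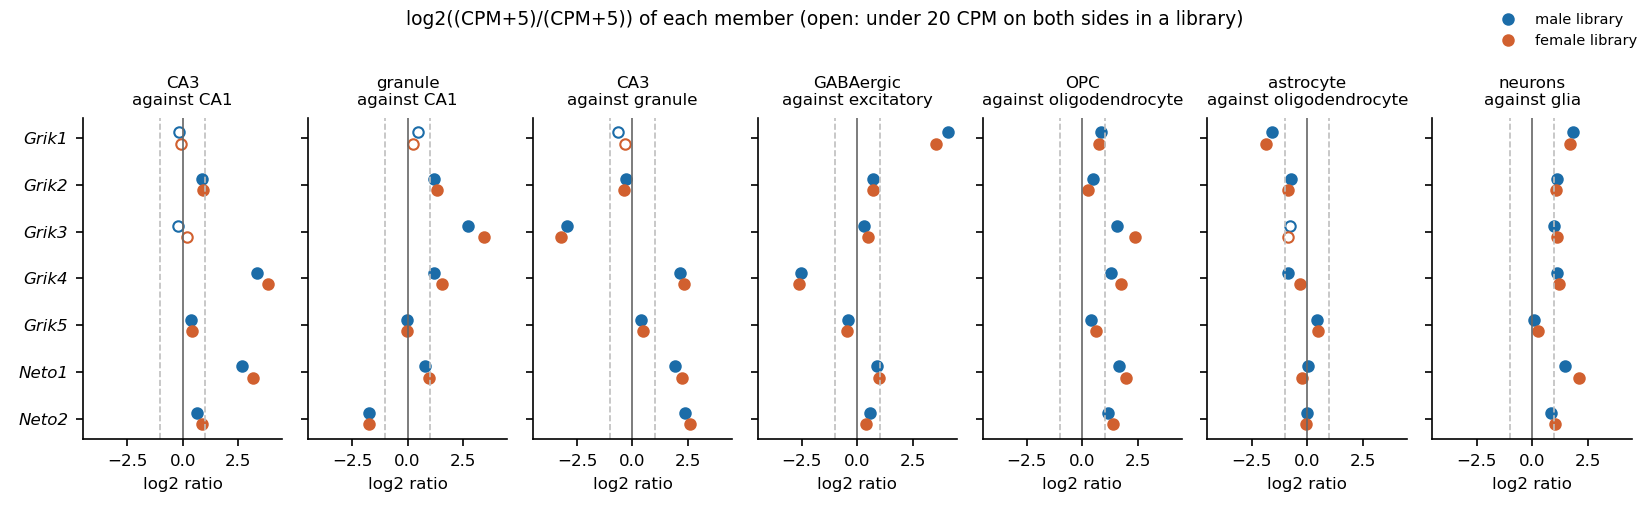
log2 ratio of CPM, with 5 CPM added to each side, of each gene in 7 comparisons; filled points had at least 20 CPM on either side in each library, open points did not, and dashed lines mark 2-fold. Grik4 lies at 3.35 and 3.85 for CA3 against CA1 and at -2.57 and -2.63 for GABAergic against excitatory classes.

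Among the interneurons, each subtype was set against the mean of the other 3. Sst interneurons had 2 of 7 genes called, both higher, against 4.75% of 6946 genes (1.83% higher and 2.92% lower): Grik3 at 3.53-fold and 3.70-fold and Neto1 at 2.34-fold and 2.13-fold. Lamp5 interneurons had 3 called, against 6.59% of 6945 genes (2.58% higher and 4.02% lower). Grik1 was higher there (2.64-fold and 2.12-fold), and Grik3 (log2 -3.42 and -3.05) and Neto1 (log2 -1.68 and -1.43) were lower. Grik3 passed the filter there through the other subtypes alone, at 113 and 107 CPM. With nuclei thinned, or at Leiden resolution 0.5 or 2, the Grik1 call in Lamp5 interneurons was lost, at mean log2 values of 1.11, 1.07 and 0.99. Pvalb interneurons had 1 called, Grik1, lower at log2 -1.79 and -2.14, against 6.39% of 6985 genes (2.61% higher and 3.78% lower). Vip or Cck interneurons had 1 called, Grik3, lower at log2 -1.12 and -1.31, against 5.07% of 6956 genes (2.52% higher and 2.56% lower). That call was also lost with nuclei thinned (mean log2 -0.45), as a mean over nuclei (-0.59) and at Leiden resolution 0.5 (-0.79) and 2 (-0.55). Other calls were gained. Neto2 was called in Vip or Cck interneurons with nuclei thinned, and Neto1 in Pvalb interneurons at Leiden resolution 0.5 and 2. By the main rule Neto1 was at log2 -0.99 and -0.93 in Pvalb interneurons, just short of a call. Each subtype is part of the mean that the others are set against, so these calls are not independent.

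The classes were not uniform. Since sub-clusters were formed from the same nuclei, with the 7 genes left out of the clustering genes, their levels are given as a description. Within CA3, Neto1 was 1009 and 1210 CPM in the sub-cluster led by Scin, 564 and 602 CPM in the one led by Sema5b and 275 and 258 CPM in the one led by Col6a1. Grik4 was more even there, at 1198 and 1292, 1143 and 1174, and 891 and 1115 CPM in the same 3 sub-clusters. Neto1 thus differed between these sub-clusters of the field by more than Grik4 did.

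Among interneurons, Grik1 also differed between sub-clusters of one subtype. In the Pvalb class, Grik1 was 991 and 1096 CPM in the sub-cluster led by Mybpc1 and 120 and 64.4 CPM in the one led by Aox3. In the Vip or Cck class it was 1353 and 1526 CPM in the sub-cluster led by Vip and 185 and 234 CPM in the one led by Yjefn3. Neto1 went the other way in that class. It was 213 and 231 CPM in the Vip sub-cluster, 901 and 695 CPM in the Yjefn3 sub-cluster and 837 and 1035 CPM in the one led by Syt6. The smallest of these sub-clusters, the one led by Yjefn3, held 23 female nuclei.

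**Figure D4:**
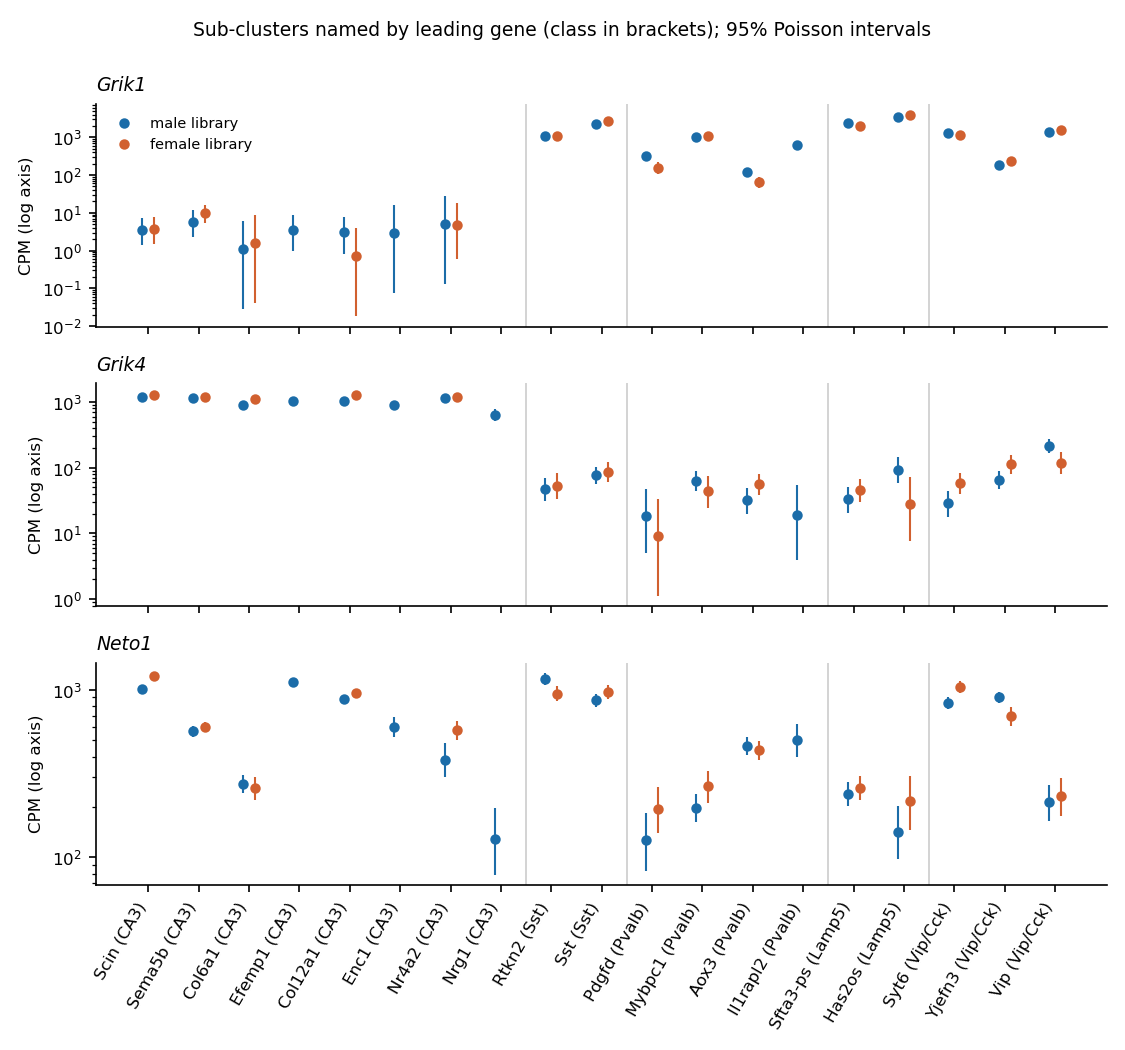
CPM (log axis) of Grik1, Grik4 and Neto1 in the sub-clusters of CA3 and of the 4 interneuron subtypes, by leading gene, with 1 point per library and exact 95% Poisson intervals; a sub-cluster without UMIs or without enough nuclei in a library has no point. Neto1 falls from 1009 and 1210 CPM (Scin) to 275 and 258 CPM (Col6a1) in CA3, and Grik1 differs between the Mybpc1 (991 and 1096 CPM) and Aox3 (120 and 64.4 CPM) sub-clusters of the Pvalb class.

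Detection of pairs of genes in the same nucleus was read at 1000 UMIs per nucleus. In CA3, 50.3% of male and 52.9% of female nuclei had UMIs of both Grik2 and Grik4, and the product of the single shares was 49.8% and 53.0%. In Sst interneurons, Grik1 and Neto1 were found together in 36.6% and 40.0% of nuclei, beside products of 36.3% and 36.7%. In Vip or Cck interneurons the same pair was found together in 9.73% and 14.8%, beside products of 12.9% and 20.1%, the class in which Neto1 and Grik1 differed in opposite ways between the Vip and Yjefn3 sub-clusters.

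In glia, oligodendrocyte precursors held more of most members than oligodendrocytes. All 7 genes were tested and 4 were called, all higher in precursors, against 17.4% of 8047 genes (10.7% higher and 6.7% lower). Neto1 was 303 and 211 CPM in precursors and 91.8 and 51.0 CPM in oligodendrocytes, 3.18-fold and 3.85-fold. Grik3 was 2.96-fold and 5.20-fold, Grik4 2.43-fold and 3.31-fold and Neto2 2.21-fold and 2.60-fold higher. In the female library Grik3 passed the filter through precursors alone, at 89.0 CPM beside 13.1 CPM in oligodendrocytes. Grik1 was 1.78-fold and 1.66-fold and Grik2 1.38-fold and 1.20-fold higher, under the rule. Most oligodendrocyte nuclei of the male library came from the cluster led by Aspa and most of the female library from the cluster led by A230001M10Rik. With called doublets kept, Grik4 and Neto1 were called and Grik3 and Neto2 were not, and Neto2 was not called with nuclei thinned.

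Astrocytes had 1 of 6 tested genes called against oligodendrocytes, against 19.2% of 8017 genes (10.9% higher and 8.34% lower). Grik1 was 59.37 and 60.03 CPM in astrocytes, and the log2 ratio was -1.61 and -1.85. Over all neurons against all glia, 4 of 7 genes were called, all higher in neurons, against 31.4% of 8487 genes (9.41% higher and 22% lower in neurons). Neto1 was 2.80-fold and 4.26-fold higher, Grik1 3.59-fold and 3.29-fold, Grik4 2.14-fold and 2.33-fold and Grik2 2.15-fold and 2.10-fold. These are ratios of means over classes and do not hold for each class. Grik1 was at most 8.07 CPM in granule, CA1, CA2 and CA3 neurons, below every glial class. The lowest of those, microglia, held 25.5 and 17.9 CPM. Grik4 in oligodendrocyte precursors, at 262 and 292 CPM, lay above every neuronal class except CA3 and CA2. Grik2 and Grik4 lay near the 2-fold rule and were not called with doublets kept or at Leiden resolution 2, and Grik2 was not called with a filter of 1000 genes and 1% mitochondrial UMIs. Grik5 was at log2 0.08 and 0.27.

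Of 21 listed genes for receptor partners and RNA editing, 20 were measured, and Klhl17 was not analysed here. Between CA3 and CA1, 2 of 16 tested were higher and 1 lower, with a list median of log2 0.01 and 0.02. Of all tested genes, 8.61% were called there. Grip1, which encodes a PDZ scaffold that binds glutamate receptors, was 723 and 748 CPM in CA3 and 248 and 184 CPM in CA1. Adarb1, the editing enzyme, was 159 and 140 CPM in CA3 and 58.2 and 54.8 CPM in CA1. C1ql3 was lower in CA3. In granule cells against CA1, 3 of 17 were higher and none lower, against 12.1% of all tested genes called. These were Adarb1 at 132 and 134 CPM, and C1ql2 and C1ql3, which encode secreted C1q-like proteins of the mossy fibre synapse. C1ql3 was 341 and 203 CPM in granule cells and 67.2 and 30.7 CPM in CA1. C1ql2 was 79.4 and 23.3 CPM in granule cells and 14.9 and 3.34 CPM in CA1, and male nuclei held more of it in each of the 15 classes. In microglia, the background class, C1ql2 was 91.9 and 21.4 CPM, about its level in granule cells, and C1ql3 was 200.1 and 91.4 CPM.

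The remaining comparisons of that list follow. In CA3 against granule cells Grip1 was higher and C1ql2 and C1ql3 lower, of 17 tested. In interneurons Grip1 was 5141 and 5621 CPM, beside 473 and 476 CPM in the excitatory classes, and Grip2, a second scaffold of that kind, 44.0 and 47.4 CPM beside 2.50 and 2.42 CPM, of 18 tested. In oligodendrocyte precursors against oligodendrocytes, Grip1 and Cask were higher and Dlg1 lower, of 17 tested. Dlg1 was also lower in astrocytes than in oligodendrocytes. In neurons against glia, Grip1 and Snap25 were higher and Ctnnb1 lower, of 17. None of the list was called in the 4 subtype comparisons. The share of all tested genes called was 13.2% for CA3 against granule cells, 11.5% for interneurons and 17.4% for precursors. It was 19.2% for astrocytes, 31.4% for neurons against glia and 4.75% to 6.59% in the subtype comparisons.

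The 13 other ionotropic glutamate receptor genes summed to 15152 and 15890 CPM in CA1, 11969 and 12004 CPM in CA3, 11858 and 12780 CPM in granule cells and 10425 and 10026 CPM in Lamp5 interneurons. Of the tested genes of that list, none of 10 was called between granule cells and CA1, and 1 of 10 was lower in CA3 than in CA1 and likewise than in granule cells. In interneurons 3 of 11 were higher, in oligodendrocyte precursors 5 of 10, in astrocytes 3 of 11 with 1 lower, and in neurons against glia 6 of 11 with 1 lower. Among the subtypes, of 11 tested, 2 were higher in Sst interneurons, 1 higher and 3 lower in Pvalb, 1 higher and 2 lower in Lamp5, and 1 higher and 4 lower in Vip or Cck interneurons. Of all tested genes, 12.1% were called between granule cells and CA1, 8.61% between CA3 and CA1 and 13.2% between CA3 and granule cells. The share was 11.5% for interneurons, 17.4% for precursors, 19.2% for astrocytes and 31.4% for neurons against glia. Among the subtypes it was 4.75% for Sst, 6.39% for Pvalb, 6.59% for Lamp5 and 5.07% for Vip or Cck.

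The genes most like each member in pattern were taken by Pearson correlation of log2(CPM + 5) over 30 points (15 classes in 2 libraries) among 10468 genes. Points of a class share nuclei types and points of a library share its background, so r is a description. For Grik1 these were Alk (r = 0.92), Plcb4 (0.88) and C130073E24Rik (0.87), for Grik2 Ctnna2 (0.86), Airn (0.86) and Rragb (0.85), and for Grik3 Tshz3 (0.83), Chrm2 (0.82) and 4930445B16Rik (0.80). For Grik4 they were AI115009 (0.82), Ccbe1 (0.81) and Ak5 (0.80), and for Grik5 Noct (0.79), Evc2 (0.76) and Inhba (0.75). For Neto1 they were Gm16083 (0.85), Zfp618 (0.83) and Pclo (0.82), and for Neto2 Gm13362 (0.78), Elavl4 (0.75) and Rabgap1 (0.75). Among the members, Grik2 and Neto1 (r = 0.67) and Grik4 and Grik5 (r = 0.65) were most alike, and Grik1 and Grik5 (r = -0.50) least.

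Between the libraries, 93 of 105 pairs of a gene and a class had enough UMIs and 3 passed 2-fold, against 1.82% of 105831 such pairs over all genes. In the Fn1 cluster, where 2.04% of 6879 genes passed, Grik1 was 77.0 CPM in male nuclei and 282 CPM in female nuclei (log2 male over female -1.81) and Grik4 was 70.7 and 170 CPM (log2 -1.21). In astrocytes, where 1.64% of 8170 genes passed, Neto1 was 94.6 and 42.4 CPM (log2 1.07). Only Grik1 kept this in every alternative run. Grik4 was at -0.56 with nuclei thinned, -0.46 as a mean over nuclei and -0.91 with doublets kept, and Neto1 was at 0.97 with TMM scaling, 0.98 with median-of-ratios scaling, 0.84 at Leiden resolution 2 and 0.53 with doublets kept. In the other 13 classes none of the members passed, and the share of all genes that did ran from 0.375% in CA3 to 7.25% in the Dpp10 cluster, which had 50 female nuclei.

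Markers of other cell types differed between the libraries in these and in other classes. Choroid plexus markers summed higher in the male library in all 15 classes, for example 2425 against 217 CPM in oligodendrocytes and 2625 against 252 CPM in microglia. Oligodendrocyte markers were higher in the female library, 8 of 8, in 8 classes, among them the 4 interneuron subtypes. In the Fn1 cluster, GABAergic markers summed to 83.8 CPM in male nuclei and 231 CPM in female nuclei and 7 of 8 were higher in the female. CA3 markers summed to 301 and 581 CPM, again with 7 of 8 higher, and oligodendrocyte markers to 340 and 624 CPM with 8 of 8 higher. Iyd, a CA3 marker, was at 0 in the male nuclei. The own subicular or deep-layer markers of the cluster summed to 3416 and 2183 CPM, with 5 of 8 higher in the female. The Grik1 UMIs were uneven over nuclei, with 6 male and 46 female nuclei holding at least 10. Without the 67 male and 62 female nuclei that held a UMI of Gad1, Gad2, Slc32a1 or Dlx6os1, Grik1 was 57.0 and 279 CPM, and Grik4 was 78.6 and 139 CPM (log2 -0.78), under 2-fold. In astrocytes, choroid plexus markers summed to 1497 and 163 CPM in the male and female library, with 6 of 8 higher in the male, and Vip or Cck markers to 512 and 275 CPM with 8 of 8 higher. Neto1 in microglia was 79.6 and 50.4 CPM, and its thinned share in astrocytes, 8.28% and 3.66%, was close to that in microglia, 7.03% and 4.69%. The part of these markers in the differences was not tested.

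**Figure D5:**
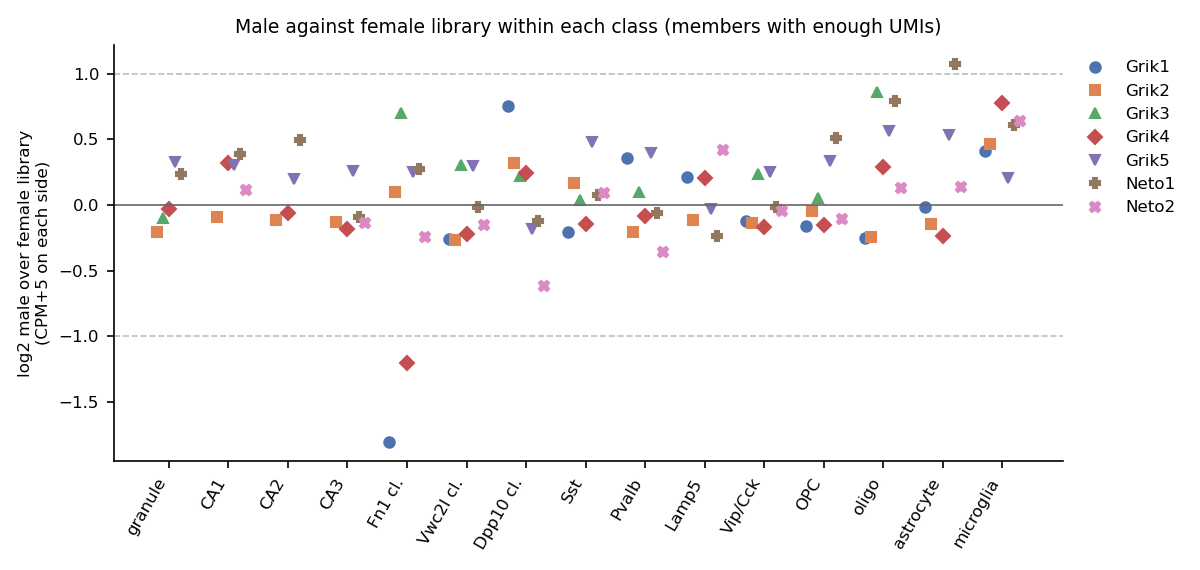
log2 of male over female CPM, with 5 CPM added to each side, for each gene with enough UMIs in each of the 15 classes; dashed lines mark 2-fold. Grik1 and Grik4 in the Fn1 cluster lie at -1.81 and -1.21 and Neto1 in astrocytes at 1.07, while the other 90 points lie within 2-fold.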

How the data were processed

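Nuclei of male and female hippocampus were profiled with droplet 3′ libraries (Chromium v3.1), per the labels' protocols. The deposited matrices hold whole UMI counts per gene and barcode. Cell Ranger 7.0.1 is named per the file headers. The genome build mm10 and bcl2fastq 2.20.0.422 are named per the submitters' processing notes. Which annotation was used, whether introns were counted and how barcodes were called is not given in the sources used here. Each sex has 1 library, so no test was made.

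From these counts, 16034 male and 19251 female barcodes were kept, on a minimum of 500 genes and a maximum of 5% UMIs from mitochondrial genes. Doublets were marked with scrublet (1534 male, 1445 female). Its automatic threshold marked none in the female library, so the top 7.51% of female scores were marked, and of 33 clusters the 6 with over 40% doublets were removed. The libraries shared 101 barcode sequences. Nuclei were clustered with scanpy 1.11.5 on 3000 variable genes (40 components, 15 neighbours, Leiden resolution 1) without the 7 genes or the listed genes. Classes were named from lists of 8 markers. Interneuron subtypes came from sub-clustering the GABAergic nuclei. CA2 and mossy cells were split out of CA field clusters likewise, a step chosen after seeing the data. UMIs were summed per class and library, and CPM was computed from the sums. Means over classes weight classes equally. For male against female, at least 20 CPM in either library and 50 UMIs in both together were asked for. TMM and median-of-ratios factors (edgeR 4.0.16) were used as alternatives. The code that makes the calls was checked on simulated counts with known fold changes.

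All 7 members were named in every class, listed partners where they differed 2-fold in both libraries (1 such result is not reported here), and the 3 genes most like each member by correlation. The members, lists and classes were chosen with earlier results of these data known. Gm26543 and Gm47018, which lie within Grik2 on its strand, were counted separately and held 335 and 530 male UMIs.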

Additional observations from a re-analysis of the deposited data

How the results depend on the processing

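No paired analysis was possible because each sex has 1 library. Over the alternatives run (thinned nuclei, stricter filter, doublets kept, 1 CPM added, mean over nuclei, TMM and median-of-ratios scaling, other resolutions), none of the 31 called values changed sign. Of their 288 recomputed values, 238 moved by under 0.25 log2 and 50 by more. Called values were at least 1 log2 in size and every alternative reused the same counts, so a kept sign says little. Some calls were lost. Median-of-ratios scaling left 2 calls for granule cells against CA1. With doublets kept and GABAergic nuclei as 1 class, the count was 1 for GABAergic against excitatory classes, 2 for oligodendrocyte precursors against oligodendrocytes, 2 for neurons against glia and 1 for male against female; the subtype comparison was not run there. At resolution 2, neurons against glia had 2 calls. With a stricter filter (1000 genes, 1% mitochondrial), male against female had 5. The share of nuclei with a UMI of each member was set against microglia in 14 other classes. It lay above in 54 pairs of member and class when thinned, in 51 at 2000 UMIs and in 83 unthinned. The same count over all genes was not made. The cause of each move was not tested. Chosen after seeing the data were the Glis3 granule cluster alone, the unnamed GABAergic sub-clusters and the Fn1 cluster without nuclei with interneuron UMIs, which left 2 male against female calls. TMM scaling shifted the median gene by 0.23 and 0.24 log2 for neurons against glia, where 6 members were called, and by -0.16 and -0.18 for granule cells against CA1. At 18 UMIs or fewer in a library, as for Grik3 in female CA1 and Grik1 in CA2, levels are limited by depth.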
